A study of Mus musculus with 10 samples.

Results

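The response of wild-type mouse colonic organoids to rosiglitazone was taken from 5 of the 10 arrays of the series: 3 from organoids given the drug and 2 from organoids given vehicle. Membership followed the genotype and treatment labels alone, and all annotated genes were compared. Colonic organoids are epithelial cultures grown in Matrigel from crypts, the pits of the colon wall that hold its stem cells. The donors were male mice on a C57BL/6J background, whose ages the labels do not state. Rosiglitazone was used at 1 µM and the vehicle was 0.1% DMSO, each for 24 h, in a medium with Wnt, R-spondin, Noggin and EGF that both groups shared. The wild-type animals were littermates of mice in which Villin-Cre, active in the intestinal epithelium, removes exons 1 and 2 of Pparg, and the labels do not say which of these alleles the wild types carried. The mouse identifier put both treatments in mice 42 and 47, whereas mouse 48 gave a rosiglitazone array (replicate 1) and no vehicle array. The wild-type arrays thus stand for 3 mice, and the within-mouse difference could be read in 2 of them.

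Rosiglitazone is a thiazolidinedione that binds and activates PPARγ, a nuclear receptor for fatty acids encoded by Pparg. PPARγ pairs with RXR and binds response elements near genes of lipid storage, lipid handling and fatty acid oxidation, many of which the related receptors PPARα and PPARδ also control. In the colon PPARγ is found mainly in the differentiated epithelial cells that face the lumen.

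Values are expression levels on a log2 scale, on which a difference of 1 is a doubling, and 18820 genes had a named probe set. A gene is called bright here where its mean over the 10 arrays exceeded 4.51, the median of the probe sets tested. All 12 epithelial markers measured were bright, with list means from 10.38 to 10.58 in the 5 arrays. None of the 15 fibroblast and smooth muscle markers and none of the 11 endothelial, glial and adipocyte markers was bright (list means 2.67 to 2.76 and 2.49 to 2.59), and 2 of 15 immune markers were. The 5 arrays correlated at r from 0.9916 to 0.9973 across probe sets. The median absolute difference between drug and vehicle was 0.113 in mouse 42 and 0.127 in mouse 47, less than the 0.134 between these mice in vehicle and the 0.153 between them in rosiglitazone. The array of mouse 48 stood farther away, at 0.194 to 0.198 from the other rosiglitazone arrays and 0.19 from each vehicle array. It did not exceed the vehicle mean in 37 of the 56 genes at least 0.5 higher with the drug in mice 42 and 47. It lay below both vehicle arrays in 27 of the 31 genes at least 0.5 lower in both mice. That order is favoured by choosing genes on the vehicle arrays. Every difference of group means with 3 rosiglitazone arrays, and every statement on all 3 of them, thus rests on the treatment label of that array, which the data given here do not check. Within-mouse differences do not use it.

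No gene passed the test. With limma and Benjamini-Hochberg adjustment, 0 of 23099 probe sets (0.0%) passed 0.05 for rosiglitazone against vehicle without a block, with the mouse as a random block or with it as a fixed block. The smallest adjusted p in these limma fits was 0.9998, 0.719 and 0.257. An unadjusted p under 0.05 was reached by 229 probe sets (0.991%) without a block, 697 (3.02%) with the random block and 889 (3.85%) with the fixed block. At that limit a fraction of 0.05 is expected when nothing differs, and each of these shares was lower. An exact rank-sum test of 3 arrays against 2 cannot give a two-sided p below 0.2. The values that follow are thus levels and differences with their spread, and none of them is a called change.

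Pparg, the receptor itself, read 8.34 and 8.41 in vehicle (mice 42 and 47), 7.59 and 7.93 in rosiglitazone in the same mice, and 8.30 in mouse 48. All 3 rosiglitazone values lay below both vehicle values, mouse 48 by a margin of 0.04. The within-mouse differences were -0.75 and -0.49, and the difference of group means was -0.44 (SE 0.34, n = 3 and 2). The other receptors showed no such gap between the groups: Ppard read 8.86 and 8.64 in vehicle against 8.95, 8.66 and 8.77 in rosiglitazone. Ppara was dim in every array (3.83 to 4.17), and Rxra, which encodes the partner of all 3 PPARs, read 6.78 to 6.95. Of the 20 measured genes of PPARs, RXRs and their coactivators, 5 were higher and 4 lower in both mice, and 0 passed the test. Promoter windows of the genes that the text turns on were read from the RefSeq table of GRCm38.p6, each running from 250 bases before to 50 bases after an annotated start. The hexamer AGGTCA, the core letters that PPAR and RXR each contact, was searched on both strands. It stood in 5340 of 32851 windows (16.3%) of all genes, and in 7 of the 45 windows found for 37 of 43 genes looked up, those of Acot4, Clca3b, Cpt1a, Plin2, Pparg and Slc51b. Of these, Pparg and Cpt1a were looked up by choice and not by their rank in these data, so nothing is read from the count. The direct repeat of this hexamer with 1 base between, AGGTCANAGGTCA, stood in 13 windows (0.0396%) of all genes and in 0 of the 45. The windows of Pparg, at chr6:115360894-115361193 on the plus strand, and of Cpt1a, at chr19:3323051-3323350 on the plus strand, are shown because the first is the drug's receptor and the second a textbook target. Capitals mark the hexamer, which begins at position -28 from the start in Pparg and, in reverse complement, at -94 in Cpt1a.
Pparg: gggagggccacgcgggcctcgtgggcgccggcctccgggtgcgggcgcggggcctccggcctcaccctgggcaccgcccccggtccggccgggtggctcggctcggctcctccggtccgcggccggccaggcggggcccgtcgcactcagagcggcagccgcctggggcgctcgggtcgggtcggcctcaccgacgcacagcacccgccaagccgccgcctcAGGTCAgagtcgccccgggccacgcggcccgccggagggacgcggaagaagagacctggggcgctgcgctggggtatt
Cpt1a: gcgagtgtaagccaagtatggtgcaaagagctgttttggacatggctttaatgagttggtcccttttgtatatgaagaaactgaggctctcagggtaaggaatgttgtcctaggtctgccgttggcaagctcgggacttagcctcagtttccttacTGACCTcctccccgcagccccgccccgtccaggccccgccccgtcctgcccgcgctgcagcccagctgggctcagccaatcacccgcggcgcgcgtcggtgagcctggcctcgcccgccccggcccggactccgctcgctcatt

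Among textbook PPAR targets, the genes that differed most between drug and vehicle in mice 42 and 47 were those of lipid storage, of fatty acid handling and of the switch from glucose to fat. The list held 70 genes, of which 60 were measured and 31 were bright. This list and the others were written from textbook knowledge with earlier results of these data known. Their shares beside those of all genes are thus a description. Lists share members, such as Acot2, so counts in different lists are not separate results. Of the 60, 33 were higher in both mice and 9 lower in both, against 26.0% higher and 25.4% lower in both among all genes. The share higher in both was 55%. Some lists of other functions had like shares: citrate cycle 56.25%, glycolysis and hypoxia 54.3%, unfolded protein and integrated stress response 53.6%. Others did not, such as DNA replication and cell cycle at 20%. The median difference over the PPAR targets was 0.12 in mouse 42 and 0.10 in mouse 47, where all genes had medians of 0.01 and -0.01. The array of mouse 48 exceeded the vehicle mean by a median of 0.02 over the list and 0.04 over all genes. In 7 of the 60 the difference was at least 0.5 in both mice, a size reached upwards by 56 genes in all (0.298%), and 0 were as much lower in both. Across the 60 targets the differences in the 2 mice correlated at r = 0.82, and across all genes at r = 0.14. The differences come from separate mice and share no array, and the few targets with the largest values weigh most. With limma and Benjamini-Hochberg adjustment 0 of 60 passed in either direction.

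**Figure D1:**
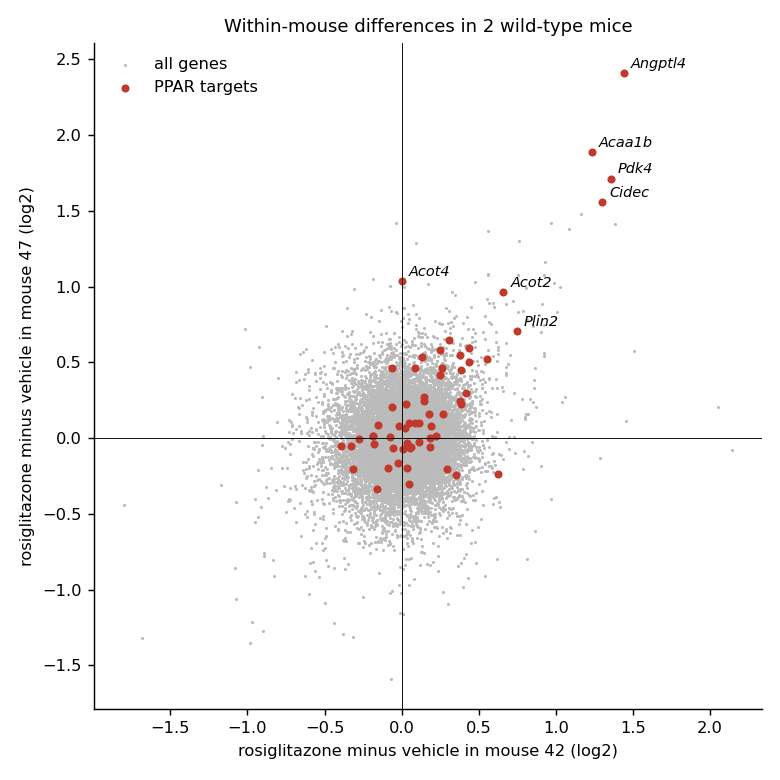
Difference between rosiglitazone and vehicle (log2) in mouse 42 (horizontal) and mouse 47 (vertical), with 1 point per gene for 18820 genes and the 60 measured PPAR targets in red. Angptl4, Acaa1b, Pdk4 and Cidec lie at 1.23 or above in both mice, and Acot4 is at 0.00 in mouse 42 and 1.04 in mouse 47.

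Angptl4 (probe set 10450038), a secreted inhibitor of lipoprotein lipase, read 3.44 and 3.52 in vehicle, 4.88 and 5.93 in rosiglitazone in mice 42 and 47, and 2.89 in mouse 48. Mouse 48 thus lay below both vehicle arrays while the paired arrays lay above them. Acaa1b (10597592), a peroxisomal thiolase, read 3.06 and 2.91 in vehicle, 4.30 and 4.80 in rosiglitazone, and 3.53 in mouse 48, so all 3 rosiglitazone arrays exceeded vehicle. Pdk4 (10543017), the kinase that shuts off pyruvate dehydrogenase, read 2.45 and 2.54 in vehicle against 3.80 and 4.26 in rosiglitazone. Its value in mouse 48 was 2.34, under both vehicle arrays. All 3 genes were dim in vehicle, below the limit for a bright probe set, and crossed it for Angptl4 in both mice and for Acaa1b in mouse 47.

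Several lipid storage genes were higher with the drug in mice 42 and 47. Cidec (10546929), which enlarges lipid droplets, read 4.78 and 5.00 in vehicle, 6.08 and 6.55 in rosiglitazone, and 5.04 in mouse 48, just above both vehicle arrays. Plin2, the main coat protein of lipid droplets in most cells, differed by 0.75 and 0.71 within the mice and was 7.97 in mouse 48, below the 8.00 and 8.14 of vehicle. Hilpda (10536794), a droplet protein that inhibits the lipase Pnpla2, read 5.94 and 5.73 in vehicle, 6.97 and 6.73 in rosiglitazone, and 5.52 in mouse 48. Its within-mouse differences, 1.02 and 1.00, were nearly equal, and their mean of 1.01 had an SE of 0.11 in the limma fit with the mouse as a fixed block (adjusted p = 0.257). This SE also draws on the paired arrays labelled knockout. Dgat2, which catalyses the last step of triglyceride synthesis, read 6.15 and 6.53 in vehicle against 6.94 and 7.37 in rosiglitazone, whereas mouse 48 read 5.37, the lowest of the 5. Pnpla2, the lipase that starts triglyceride breakdown, differed by 0.41 and 0.29, with mouse 48 at the vehicle mean of 8.66. Of the 30 measured genes of lipid droplets and triglyceride enzymes, 16 were higher and 3 lower in both mice, 5 were at least 0.5 higher in both and 0 passed the test. The list's median difference was 0.07 in mouse 42, 0.15 in mouse 47 and -0.08 for mouse 48 against the vehicle mean. Mouse 48 lay nearer to the vehicle mean than to the paired rosiglitazone mean in 15 of the 30, the same share as among all genes (50.0%).

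Of 27 measured genes of mitochondrial fatty acid oxidation, 26 of them bright, 18 were higher and 4 lower in both mice and 0 passed the test. The median difference was 0.20 in mouse 42, 0.14 in mouse 47 and -0.19 for mouse 48 against the vehicle mean, and 20 of the 27 genes in mouse 48 lay nearer to the vehicle mean than to the paired rosiglitazone mean. Over the group means the list's median was 0.03, and it ran from -0.06 without rosiglitazone replicate 3 to 0.13 without mouse 48, below 0 also without rosiglitazone replicate 2 or vehicle replicate 1. The entry enzyme Cpt1a, which loads fatty acids onto carnitine, read 8.49 and 8.58 in vehicle, 8.88 and 9.03 in rosiglitazone, and 8.36 in mouse 48. Slc25a20, the carnitine carrier of the inner membrane, differed by 0.26 and 0.46, and Cpt2, its partner enzyme inside, by 0.25 and 0.42. Hadha and Hadhb, the alpha and beta subunits of the trifunctional protein, differed by like amounts. Hadha read 9.03 and 9.22 in vehicle, 9.47 and 9.72 in rosiglitazone, and 8.88 in mouse 48. Hadhb read 7.88 and 8.25 in vehicle, 8.32 and 8.84 in rosiglitazone, and 7.91 in mouse 48. The within-mouse differences were thus 0.44 and 0.50 for Hadha and 0.44 and 0.59 for Hadhb, and in mouse 48 neither exceeded the vehicle mean. These genes stand head to head on chromosome 5, and the Hadhb window on the plus strand, chr5:30155003-30155302, is shown because it overlaps the Hadha window on the minus strand, chr5:30154931-30155230. Capitals mark the 228 bases that both windows share.
Hadhb: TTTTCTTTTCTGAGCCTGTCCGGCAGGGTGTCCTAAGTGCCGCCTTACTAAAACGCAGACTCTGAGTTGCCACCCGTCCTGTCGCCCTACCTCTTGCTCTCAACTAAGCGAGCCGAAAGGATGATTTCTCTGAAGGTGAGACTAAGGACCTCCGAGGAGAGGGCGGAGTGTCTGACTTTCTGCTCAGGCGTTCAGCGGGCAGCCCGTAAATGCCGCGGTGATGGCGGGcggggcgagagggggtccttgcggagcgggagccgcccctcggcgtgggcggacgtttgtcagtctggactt

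Acaa2, the mitochondrial thiolase that closes the cycle, read 9.53 and 9.81 in vehicle, 10.08 and 10.34 in rosiglitazone, and 9.63 in mouse 48, within the range of vehicle. Acot2, a mitochondrial thioesterase that releases free fatty acids from coenzyme A, differed sharply between the mice. It read 5.16 and 5.47 in vehicle, 5.82 and 6.43 in rosiglitazone, and 3.99 in mouse 48. A mean within-mouse difference of 0.81 thus became 0.10 between the groups of 3 and 2 arrays. The SE of 0.60 is from the limma fit over all 10 arrays, not from the wild-type arrays alone. Acad10, of the acyl-CoA dehydrogenase family, was above both vehicle arrays in all 3 mice, at 5.56, 5.56 and 5.25 against 5.14 and 4.95. Etfdh, which passes electrons from these dehydrogenases to ubiquinone, differed by 0.27 and 0.16 and read 7.24 in mouse 48 against a vehicle mean of 7.57. Oxidative phosphorylation, the pathway downstream, had 13 of 49 genes higher and 13 lower in both mice, close to the shares of all genes, with medians of 0.04 and -0.02 in the mice and -0.19 for mouse 48.

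Of 39 measured peroxisomal genes, 19 were higher and 7 lower in both mice and 0 passed the test, with medians of 0.10, 0.08 and, for mouse 48, 0.03. Ech1, an isomerase for unsaturated fatty acids, read 9.25 and 9.39 in vehicle, 9.79 and 9.88 in rosiglitazone, and 9.15 in mouse 48. Pex11a, which promotes peroxisome division, differed by 0.31 and 0.65, and Ehhadh, the bifunctional enzyme of the peroxisomal cycle, by 0.14 and 0.54. Acot4, a peroxisomal thioesterase, differed by 0.00 in mouse 42 and 1.04 in mouse 47, so its mean rests on 1 mouse. Catalase (Cat) differed by 0.24 and 0.29 and read 9.39 in mouse 48, inside the vehicle range.

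Of 25 measured genes of fatty acid synthesis and desaturation, 15 were higher and 4 lower in both mice. Acacb, which makes the malonyl-CoA that restrains Cpt1a, read 4.39 and 4.19 in vehicle, 5.32 and 4.93 in rosiglitazone, and 4.19 in mouse 48. Fads1, a desaturase of polyunsaturated fatty acids, showed how far mice differed before treatment: vehicle read 6.62 in mouse 42 and 5.75 in mouse 47, and rosiglitazone 7.12 and 6.23. The groups overlapped, yet the within-mouse differences were 0.50 and 0.49. Scd1, the main desaturase of saturated fatty acids, differed by 0.39 and 0.22 and read 10.26 in mouse 48, above both vehicle arrays. Lpcat3, which puts polyunsaturated chains into phospholipids, differed by 0.37 and 0.29. Cholesterol synthesis and uptake was divided, with 7 of 21 genes higher and 5 lower in both mice and medians of 0.02, -0.03 and, for mouse 48, -0.05. Adipocyte differentiation genes, among them the classical fat-cell responses to this drug class, were mostly dim (4 of 17 bright), with 5 higher and 5 lower in both mice.

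Beyond the lipid lists, genes were ranked by the smaller of the 2 within-mouse differences among those with a mean over the 5 wild-type arrays above 4.51. The differences ran from 0.75 to 1.56 in the 15 highest. The ranking used the vehicle and rosiglitazone arrays of mice 42 and 47, against which mouse 48 is read too, so the counts on mouse 48 in these genes are a description. Cidec, Hilpda and Dgat2 were among them. Gsdmcl-ps, a pseudogene of the gasdermin C cluster, read 6.51 and 5.47 in vehicle, 7.67 and 6.94 in rosiglitazone, and 5.67 in mouse 48. Its family members are close copies, so cross-hybridisation between them was not tested, and Gsdmc2 beside it differed by 0.48 and 1.03. Sgk2, a kinase that regulates epithelial ion transport, read 5.30 and 5.50 in vehicle, 6.39 and 6.89 in rosiglitazone, and 5.11 in mouse 48.

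Sema3e, a secreted semaphorin, differed by 0.97 and 1.42, and Mgst3, a microsomal glutathione transferase, by 0.93 and 1.16. Cbr2, a carbonyl reductase, differed by 0.99 and 1.02 and was lowest of the 5 in mouse 48, at 3.91. Nlrp6, a sensor of the inflammasome family expressed in intestinal epithelium, read 6.71 and 6.87 in vehicle, 7.52 and 7.86 in rosiglitazone, and 6.36 in mouse 48. Scarb2, a lysosomal membrane receptor, differed by 0.91 and 0.88. Mboat2, an acyltransferase of phospholipids, differed by 0.76 and 1.30, and Slc2a6, a sugar transporter, by 0.89 and 0.81. Trim29, Clmn and the aldehyde dehydrogenase Aldh1a7 completed the 15, with mean differences of 0.92, 0.79 and 0.91. In mouse 48 all 15 lay nearer to the vehicle mean than to the paired rosiglitazone mean. It lay above both vehicle arrays in 3 of them (Cidec, Mboat2 and Aldh1a7), between them in 2 and below both in 10. Among all 56 genes at least 0.5 higher in both mice, 50 lay nearer to the vehicle mean in mouse 48, and the median was 0.80 within the paired mice and -0.14 for mouse 48 against the vehicle mean.

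**Figure D2:**
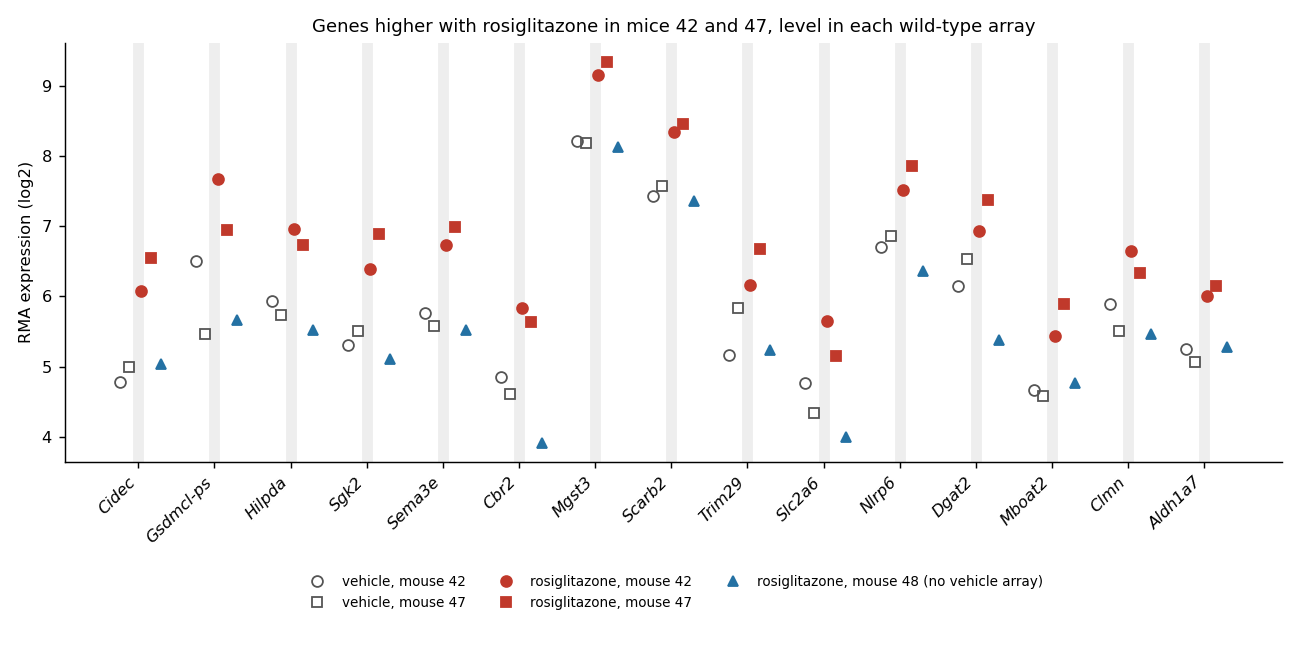
Level (RMA log2) in each of the 5 wild-type arrays for the 15 genes ranked highest by the smaller of the 2 within-mouse differences; open symbols are vehicle, red symbols rosiglitazone in the same mice, and the blue triangle is mouse 48. The triangle sits below both red symbols for all 15 genes and below both vehicle symbols for 10.

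The genes at least 0.5 lower with rosiglitazone in both mice numbered 31 (0.165% of genes). In 27 of the 31 mouse 48 lay below both vehicle arrays, where among all genes it lay beyond both on the side of the paired difference in 8608 of 18820. The choice of genes with high vehicle values favours such an order. In 5 of the 31 it lay nearer to the vehicle mean than to the paired rosiglitazone mean. The median difference was -0.72 within the paired mice and -0.77 for mouse 48. With no vehicle array from mouse 48, its own level before treatment is unknown.

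Transporters of the mature colonocyte, the absorptive cell of the colon surface, were among the lower genes. Of 49 measured colonocyte genes, 21 were lower and 12 higher in both mice, where 25.4% and 26.0% of all genes were, and 5 were at least 0.5 lower in both: Slc5a8, Slc13a1, Slc6a14, Slc51b and Slc9a3. Slc5a8 (10365640), a sodium-coupled carrier of butyrate and lactate, read 6.36 and 6.43 in vehicle, 5.29 and 5.36 in rosiglitazone, and 6.25 in mouse 48. Here the 2 mice gave differences of -1.07 and -1.06, and mouse 48 lay by 0.11 under the lower vehicle array. Slc9a3, the apical sodium-proton exchanger, read 6.31 and 7.10 in vehicle, 5.70 and 6.58 in rosiglitazone, and 4.39 in mouse 48. Slc51b, a subunit of the basolateral bile acid exporter, differed by -0.60 and -0.82 from vehicle levels that were themselves 5.43 and 6.82, and mouse 48 read 4.54. Slc13a1, a sulfate transporter, differed by -1.69 and -1.32 at dim levels, and Slc6a14, an amino acid transporter, by -0.90 and -0.76.

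Guca2a, the hormone guanylin that drives fluid secretion, was lower by unequal amounts, -1.17 in mouse 42 and -0.31 in mouse 47, and read 5.67 in mouse 48 against 7.25 and 7.22 in vehicle. Over the whole colonocyte list the median difference was -0.17 in mouse 42, 0.00 in mouse 47 and -0.16 for mouse 48, so a shift of the list as a whole was seen in 1 of the 2 paired mice. In RNA from whole cultures, fewer cells of a type and less RNA of these genes per cell cannot be told apart.

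Goblet cells are the mucus-secreting cells of the epithelium. Agr2 (10395365), a protein disulfide isomerase that mucin folding needs, read 6.38 and 6.42 in vehicle, 5.39 and 5.06 in rosiglitazone, and 4.81 in mouse 48. The groups were separated by 0.98. Clca3b was counted in the goblet list, and whether goblet cells are its source was not tested. It read 9.71 and 8.94 in vehicle, 8.87 and 8.14 in rosiglitazone, and 8.34 in mouse 48, with differences of -0.84 and -0.81 in the paired mice. The goblet list as a whole was lowest in mouse 48, with a mean level of 3.89 over its 27 genes against 4.45 and 4.32 in vehicle and 4.28 in each of the paired rosiglitazone arrays. Of the 27 genes, 8 were lower and 6 higher in both mice, with medians of -0.12, 0.04 and, for mouse 48, -0.28.

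The other lower genes came from several functions. Mt2, a metallothionein that binds zinc, read 9.55 and 8.91 in vehicle, 8.65 and 7.63 in rosiglitazone, and 8.57 in mouse 48. Oit1, a secreted epithelial protein, read 6.03 and 6.61 in vehicle, 5.20 and 5.71 in rosiglitazone, and 5.55 in mouse 48. Clec2h, a lectin of intestinal epithelium, differed by -1.08 and -0.86, with overlapping groups because its vehicle level was 6.42 in mouse 42 and 7.39 in mouse 47. Selenop, the selenium carrier, differed by -0.66 and -0.64 and Krt23, a keratin, by -0.59 and -0.73, and both were lower in all 3 rosiglitazone arrays than in vehicle. Il18, an epithelial cytokine, differed by -0.56 and -0.88. Bche, Tgfbi, Cyp2d26 and the incretin receptor Glp1r completed the 15 leading genes, with mean differences of -0.77, -0.62, -0.73 and -0.53. Of these 15, ranked on 4 of the 5 arrays, 9 had all 3 rosiglitazone arrays below both vehicle arrays, as had 6.66% of all genes, and nothing is read from that count. Mouse 48 lay below both vehicle arrays in 14, Glp1r being the exception.

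**Figure D3:**
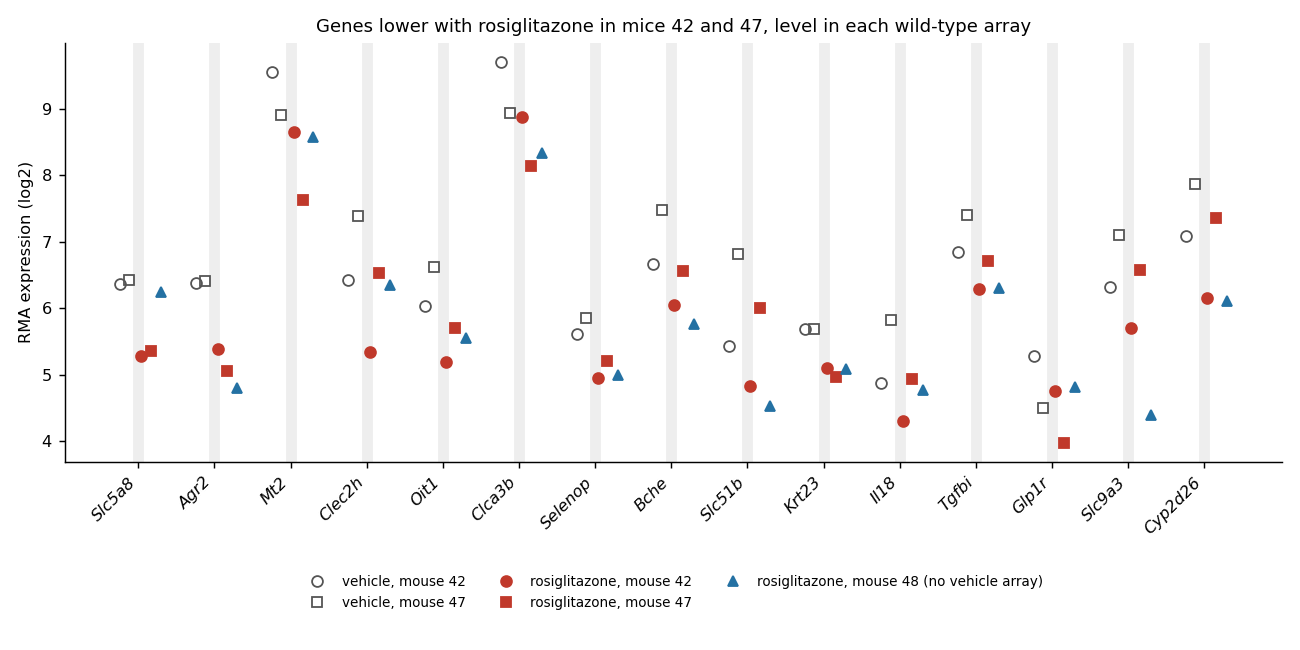
Level (RMA log2) in each of the 5 wild-type arrays for the 15 genes ranked lowest by the smaller of the 2 within-mouse differences; open symbols are vehicle, red symbols rosiglitazone in the same mice, and the blue triangle is mouse 48. The triangle is below both vehicle symbols for every gene but Glp1r, where it reads 4.82 between 5.28 and 4.50.

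Among genes of xenobiotic and steroid metabolism, 17 of 44 were higher and 13 lower in both mice. Abcb1a, the drug efflux pump P-glycoprotein, read 9.06 and 8.83 in vehicle, 9.66 and 9.72 in rosiglitazone, and 8.94 in mouse 48. Cyp2c65, a cytochrome that oxidises fatty acids, differed by 0.56 and 1.08 and read 4.60 in mouse 48 against 5.74 and 6.16 in vehicle. Cbr3, a carbonyl reductase, differed by 0.90 and 0.70, and Adh1, an alcohol and retinol dehydrogenase, by -0.95 and -0.40. Rbp2, a retinol-binding protein, differed by 0.92 and 0.54. Hmox1, the haem-degrading enzyme, read 6.94 and 7.14 in vehicle against 7.42, 7.55 and 7.25 in rosiglitazone, all 3 above both vehicle arrays. In the glycolysis and hypoxia list 19 of 35 genes were higher and 4 lower in both mice, with medians of 0.08, 0.12 and, for mouse 48, -0.09; Slc2a1, the main glucose transporter, differed by 0.24 and 0.38 and Ndrg1 by 0.34 and 0.79.

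Lists of proliferation and of the interferon response had medians of opposite sign in the 2 mice. DNA replication and cell cycle had a median of 0.19 in mouse 42 and -0.08 in mouse 47, with 8 of 40 genes higher and 2 lower in both. Interferon response and antigen presentation had -0.16 and 0.07, with 8 of 44 higher and 11 lower in both. Stem cell and Wnt targets had 0.04 and -0.05, with 7 of 28 higher and 9 lower. Of 37 inflammation and NF-kB genes, 11 were higher and 14 lower in both mice; Ptgs2, the inducible prostaglandin synthase, differed by -0.52 and -0.40 and read 3.15 in mouse 48 against 4.22 and 3.91 in vehicle. Hpgd, which inactivates prostaglandins, differed by -0.57 and -0.28, and Cldn2, a pore-forming claudin, by -0.34 and -0.45 but read 6.82 in mouse 48, above vehicle.

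**Figure D4:**
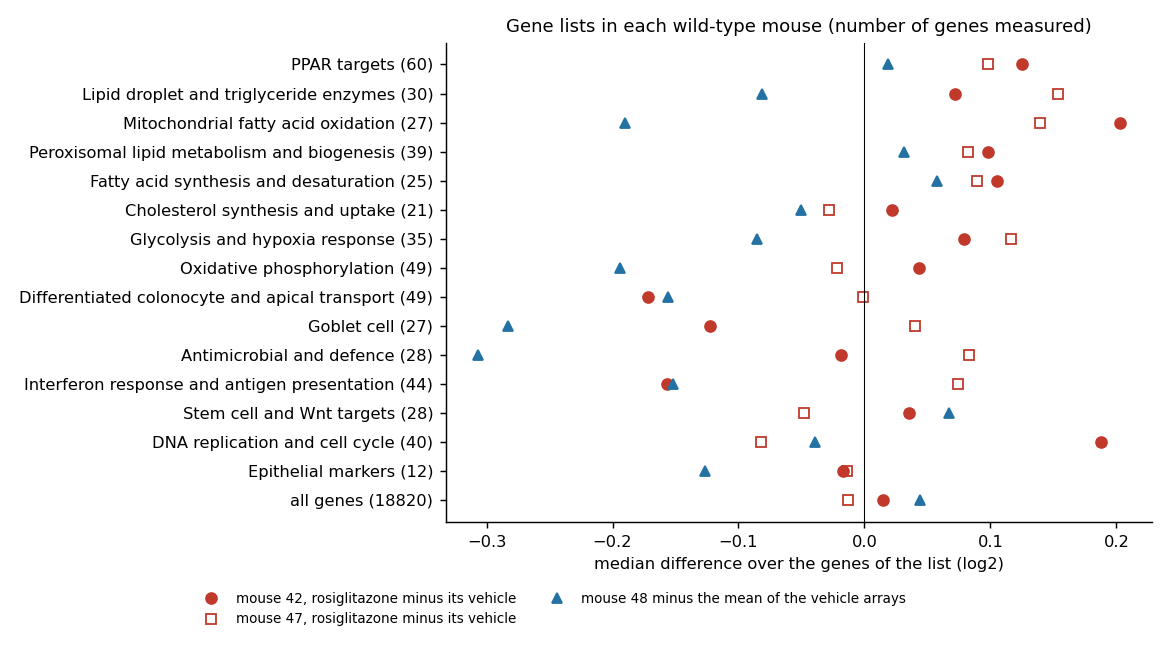
Median difference (log2) over the genes of 15 lists and over all genes, for rosiglitazone minus vehicle in mouse 42 (filled circle) and mouse 47 (open square) and for mouse 48 minus the mean of the vehicle arrays (triangle). Fatty acid oxidation reads 0.20, 0.14 and -0.19, and the goblet list -0.12, 0.04 and -0.28.

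Genes whose groups did not overlap with all 3 mice counted were 1691 higher (8.99%) and 1254 lower (6.66%) of 18820. Among PPAR targets 10 of 60 were apart upwards and 5 downwards, and among colonocyte genes 3 and 11 of 49. The widest upward gaps, among genes with a wild-type mean above 4.51, were small. Arl14, a small GTPase, read 5.87 and 5.86 in vehicle against 6.49, 6.42 and 6.37 in rosiglitazone, a gap of 0.51. Ascl2, a transcription factor of colonic stem cells, read 6.26 and 6.27 in vehicle against 6.78, 6.60 and 6.66 in rosiglitazone. Tsc22d3, a leucine zipper protein also induced by glucocorticoids, read 4.96 and 4.99 in vehicle against 5.34, 5.54 and 5.28 in rosiglitazone. Mrm3, Tubb2a, Cmtm4, Airn and Ppcs made up the rest of the 8, with group differences from 0.46 to 0.69. In the lower direction the widest gap was that of Agr2, followed by those of Krt23, Slc25a26, Selenop, Oit1, Guca2a, Fggy and Zfp566. Zfp566, a zinc finger protein, read 5.41 and 5.50 in vehicle against 5.09, 5.10 and 5.14 in rosiglitazone.

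The fit with the mouse as a fixed block, in which mouse 48 carries no weight for the drug, ranked the genes by the mean of the 2 differences over its SE. That SE draws on the paired arrays of both genotypes and on the spread of other probe sets, not on the 2 wild-type differences alone. The 10 genes of smallest p were Pdk4, Slc5a8, Gsdmcl-ps, Hilpda, Defb37, Zmynd12, Agr2, Angptl4, Sgk2 and Sema3e, with adjusted p from 0.257 to 0.267 by limma with Benjamini-Hochberg adjustment. Defb37, a beta-defensin, was dim throughout (3.19 and 3.14 in vehicle, 2.21, 1.92 and 1.74 in rosiglitazone). Zmynd12 read 2.92 and 2.97 in vehicle against 3.85, 4.05 and 3.53 in rosiglitazone. All 3 rosiglitazone arrays thus lay above both vehicle arrays, still below the bright limit.

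In mouse 48 some genes lay far outside the range of the other 4 wild-type arrays, and those farthest out were picked by that distance. Tm4sf1, a membrane protein of the tetraspanin-like family, read 10.48 there and 7.46 to 9.25 in the other 4 arrays, and Atp5md, a small ATP synthase subunit, 11.16 against 9.55 to 9.62. Hs3st3b1, Bmp4, Dnm3 and Mplkip lay above the range of the others by at least 1.02. Aldh1l1, a folate enzyme, read 3.22 against 6.26 to 6.66, and Clca1, a secreted goblet cell protein, 3.79 against 5.96 to 6.88. Dmbt1, a mucosal defence protein, read 5.14 against 7.70 to 7.95, and St8sia4, Cyba and Gna14 were likewise lowest there. With 1 array and no vehicle, these values cannot be split into the mouse and the drug.

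The same drug was given to organoids labelled as carrying the Pparg deletion, with both treatments in mice 46 and 44. Mouse 45 of that label gave a rosiglitazone array and no vehicle array. Its array enters the difference of responses without a block and with the random block, as does that of mouse 48. Pparg read 8.58 and 8.47 in vehicle against 8.78 and 8.41 in rosiglitazone there, no lower than in wild type, and the place of the probes within the gene is unknown, so these arrays are named by their label only. With limma and Benjamini-Hochberg adjustment the difference between the responses passed for 0 of 23099 probe sets (0.0%) in the fit without a block, and 536 had an unadjusted p under 0.05. With the mouse as a random or fixed block the counts were also 0, with 1147 and 1175 at an unadjusted p under 0.05. A fraction of 0.05 of the 23099 is expected at that limit when nothing differs, and nothing is read from these counts. Over all 60 PPAR targets the median difference in the labelled knockout mice was 0.00 and 0.09, with 19 genes higher and 14 lower in both, against 33 and 9 in wild type.

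Pdk4 differed by -0.24 and -0.16 in mice 46 and 44, and the responses of the 2 genotypes differed by -1.74 (SE 0.19, adjusted p = 0.502 in limma with a fixed block). Angptl4 differed by 0.14 and -0.19 there, with a difference of responses of -1.95 (SE 0.32, adjusted p = 0.753 in the same limma fit). Acaa1b (0.60 and -0.20) and Cidec (0.91 and 0.02) exceeded 0.5 in mouse 46 and not in mouse 44. In 10 of the 12 targets with the largest wild-type differences both wild-type mice exceeded both labelled knockout mice, the exceptions being Acot4 and Tsc22d3; these 12 were picked for their wild-type size, which favours that order. Slc9a3 went the other way, differing by 1.44 and 1.15 in the labelled knockout mice against -0.61 and -0.52 in wild type, a difference of responses of 1.86 (SE 0.18, adjusted p = 0.502 in limma with a fixed block). Guca2a (1.19 and 0.91) and Cyp2d26 (0.77 and 0.93) had the same opposite sign in the labelled knockout mice. Of all 31 genes at least 0.5 lower in wild type, 14 were higher with the drug in both labelled knockout mice (11 of the 15 leading ones), as were 4619 of all 18820 genes. Of the 56 higher ones 21 were higher and 13 lower in both.

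**Figure D5:**
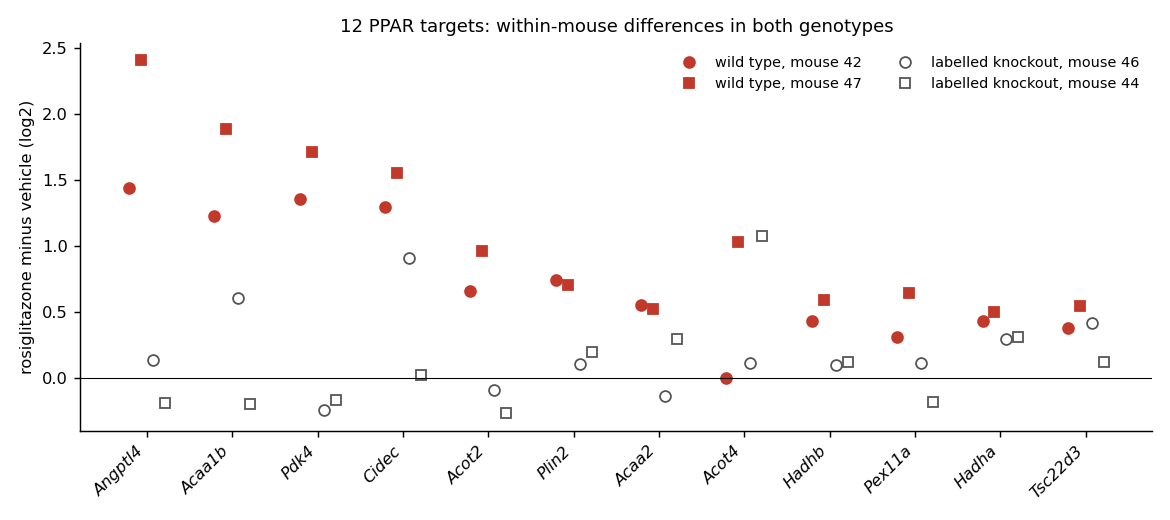
Rosiglitazone minus vehicle (log2) within each mouse that had both treatments, for the 12 PPAR targets with the largest mean wild-type difference; filled symbols are wild-type mice 42 and 47, open symbols mice 46 and 44 labelled knockout. Wild-type values for Angptl4 are 1.44 and 2.41 against 0.14 and -0.19, and for Acot4 mouse 44 reads 1.08 and wild-type mouse 47 reads 1.04.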

How the data were processed

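RNA from 10 organoid cultures was hybridised to Affymetrix whole-transcript arrays. The deposited table holds log2 values that the authors made with RMA, per the submitters' processing notes, for 35556 probe sets. RMA corrects background, quantile-normalizes arrays and summarises probes, so differences are relative to the array, and no count depth exists. For its version and for the chip definition the sources used here give nothing. The 23099 probe sets that the platform annotation lists were tested, and 12457 were left out. Of several probe sets for a gene, that of highest mean over 10 arrays was used (18820 genes). RefSeq GRCm38.p6 served for names and promoter windows only.

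Group differences were tested in R 4.3.3 with limma 3.58.1 (lmFit with 4 group means over 10 arrays, eBayes, two-sided, Benjamini-Hochberg, threshold 0.05). The scripts were tested on simulated data. Alternatives were the mouse as a random block (duplicateCorrelation, statmod 1.5.0, consensus correlation 0.438) or fixed block, other samples, scalings, filters and leaving out each wild-type array. The mouse pairs arrays, per the labels: mice 42 and 47 deviated alike under both treatments (r = 0.44 between their vehicle and rosiglitazone differences). Standard errors in the report come from the fit without a block unless stated. The spread in that fit is drawn from all 10 arrays, both genotypes included.

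Genes were named by rule: Pparg, the 12 PPAR targets of largest mean within-mouse difference, the 10 genes of smallest p with the fixed block, the 15 in each direction of largest smaller within-mouse difference and the 8 of widest gap (both with a wild-type mean above 4.51), up to 4 per list, and 6 in each direction outlying in mouse 48. The 37 lists, from textbook knowledge, and the genes were chosen with earlier results of these data known.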

Additional observations from a re-analysis of the deposited data

How the results depend on the processing

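With the donor mouse as replicate block, probe sets at an unadjusted p under 0.05 numbered 697 (random) and 889 (fixed) in place of 229. They numbered 495 on the 5 wild-type arrays, 64 on bright probe sets, 459 on all probe sets, and 152 to 526 when each of the 5 wild-type arrays was left out in turn (526 without wild-type rosiglitazone replicate 2, 152 without vehicle replicate 2). No setting called a probe set. The bright filter kept 11549 of the 23099 probe sets tested, and the whole table holds 35556. Probe sets with separate groups numbered 3564, against 1614 of the bright ones, 5628 of all and 6471 without mouse 48. That last setting, added after the data were seen, sets 2 arrays against 2, which separate more readily than 3 against 2. These counts differ in their base or arrays, and nothing is read from their size. Probe sets past 0.5 in both mice numbered 113, against 66 of the bright ones, 587 of all, 495 at 0.3 and 11 at 1. The median of PPAR targets ran from 0.078 to 0.17. Its main value of 0.112 was smaller than that list's spread of 0.135 between arrays within a group. The median of fatty acid oxidation (0.034) moved by less than its spread of 0.215, yet ran from -0.061 (without rosiglitazone replicate 3) to 0.127 (without mouse 48). Of 37 lists, 9 moved by more than their spread in some setting.

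Without mouse 48, by the fixed block, the 8 paired arrays or within-mouse means, the sign turned for Atp5md (-0.028), Tm4sf1 (-0.029), Bmp4 (-0.10), Dnm3 (-0.27), Mplkip (-0.094), Aldh1l1 (0.063), Cyba (0.0034) and Gna14 (0.092). Leaving out single arrays turned the sign of 20 of 97 genes. Their values ran from -0.18 to 0.16 for Ppara, -0.065 to 0.16 for Ppard, -0.11 to 0.061 for Rxra, -0.41 to 0.81 for Acot2, -0.14 to 0.36 for Slc25a20, -0.10 to 0.22 for Etfdh, -0.18 to 0.81 for Dgat2, -0.11 to 0.75 for Gsdmc2, -0.77 to 0.014 for Glp1r and -0.50 to 0.82 for Cyp2c65. They ran from -0.15 to 0.77 for Rbp2, -0.12 to 0.57 for Ndrg1, -0.028 to 0.77 for Atp5md, -0.20 to 1.58 for Tm4sf1, -0.10 to 0.49 for Bmp4, -0.27 to 0.99 for Dnm3, -0.094 to 0.53 for Mplkip, -1.61 to 0.063 for Aldh1l1, -1.03 to 0.0034 for Cyba and -1.10 to 0.092 for Gna14. The other 77 kept their direction in all 11 settings. The number of arrays limits precision.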

Other observations

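Rarer cell types of the epithelium were measured at low levels. Enteroendocrine genes, of the hormone-secreting cells, were mostly dim (2 of 26 bright), with 3 higher and 10 lower in both paired mice and medians of -0.08 and -0.06. Tuft cell genes had 0 of 17 bright, with 3 higher and 5 lower in both. Deep crypt secretory and Paneth genes had 6 of 16 higher and 3 lower in both. Of 29 keratin and junction genes, 5 were higher and 12 lower in both mice, with medians of -0.06, -0.03 and, for mouse 48, -0.10. Notch and lineage factors had 11 of 25 higher and 5 lower in both, with medians of 0.01 and 0.09. Unfolded protein and integrated stress response genes had 15 of 28 higher and 2 lower in both mice, with medians of 0.06, 0.07 and, for mouse 48, -0.12. Citrate cycle genes had 9 of 16 higher and 1 lower in both, with medians of 0.12, 0.02 and, for mouse 48, -0.02.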
